A study of Mus musculus with 5 samples.

Results

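The collagen genes are the symbols of the count tables made of Col, a type number, the letter a and a chain number. Of 43 such symbols, 42 had at least 10 counts in at least 2 of the 5 libraries and are described here, out of 23284 symbols in all. The symbol left out was Col6a4, with 0 to 8 counts per library. The members nearest to that limit were Col4a3, with 3 to 21 counts per library, and Col5a3, with 5 to 17. By class there were 11 fibrillar collagens, 9 FACITs (fibril-associated collagens with interrupted helices), 9 network formers, 5 beaded-filament chains of collagen VI, 4 transmembrane collagens, 2 multiplexins, the anchoring-fibril collagen Col7a1, and Col28a1.

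Collagens are secreted or membrane-anchored proteins in which 3 alpha chains wind into a triple helix. Fibrillar collagens build the banded fibrils of connective tissue and cartilage, FACITs sit on the surface of those fibrils, network collagens form sheets such as the basement membrane, and collagen VI forms beaded microfibrils around cells. In the limb bud, loose mesenchyme carries collagens I, III and V, condensing cartilage switches on collagens II, IX and XI, and the epithelium and vessels contribute basement membrane chains.

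RNA was sequenced from mouse forelimb buds in 5 libraries. There were 2 libraries of distal E11.5 forelimb from Hoxa13-/-;Hoxd13-/- embryos (mutant) and 2 from wild-type embryos, both groups of mixed C57BL/6 - CD1 strain, and 1 library of E10.5 forelimb bud from CD1 embryos. Hoxa13 and Hoxd13 are homeobox genes of the digit-forming region. The Hoxa13 allele carries a neomycin cassette in its coding region and the Hoxd13 allele a lacZ reporter in exon 1, and both are lost in every tissue of the embryo. Each E11.5 library came from a separate pool of dissected tissue, so embryo-to-embryo variation is averaged within a library, and the p-values measure the spread between pools. In bulk tissue, fewer cells of a type and less RNA per cell cannot be told apart.

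Hoxd13 measured 45.8 and 38.2 CPM (read counts scaled to library size with TMM factors) in the mutant and 236.5 and 242.3 in wild type. Hoxa13 measured 46.1 and 38.0 CPM in the mutant and 48.7 and 46.5 in wild type, and counts over a whole gene do not check an allele made by insertion. Counts in genes ranged from 45115494 to 84172202 per library. Of these counts, the collagen genes took 0.411% and 0.402% in the mutant, 0.380% and 0.307% in wild type, and 0.267% at E10.5. The limb mesenchyme markers Prrx1, Prrx2, Tbx5, Twist1, Lmx1b and Msx1 were detected in every library, with summed levels of 801 to 970 CPM. Of these 6, Prrx1 rose in the mutant and Prrx2, Twist1 and Msx1 fell. The wild-type libraries differed from each other in many collagens. Of 41 members tested, 10 were at least 1.5-fold higher in wild-type replicate 1 than in replicate 2 and 1 was at least 1.5-fold lower, beside 8.47% and 3.06% of all genes tested. The higher ones included Col7a1 (a ratio of 2.18), Col5a1 (1.87), Col1a1 (1.75), Col4a1 (1.65) and Col2a1 (1.55). Between the mutant replicates, 4 members were at least 1.5-fold higher in replicate 2 and 0 in replicate 1. Of the 16166 genes tested, 721 and 527 were so. The 4 members were Col6a6, Col28a1, Col14a1 and Col10a1, with at most 202 counts in either mutant library. Where leaving out either wild-type library changed a member's call, both values are given.

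Stretches of 120 bases just upstream of the annotated transcript start are shown for members whose mRNA differed by genotype, from 5′ to 3′ on the gene's own strand. They come from RefSeq promoter windows on GRCm38.p6, which held an entry for 34 of the 42 members. They were chosen because the 120 bases shown hold no exon of the GENCODE M21 annotation. They were also chosen to span 4 collagen classes and both directions of change. Col9a1 has another annotated start, with a Col9a1 exon in the 120 bases before it, which is not shown. Capitals mark the letters GGGCGG on either strand, the core of the GC box bound by SP1-type factors.

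Col6a5 (chr9:105960644-105960763, minus strand): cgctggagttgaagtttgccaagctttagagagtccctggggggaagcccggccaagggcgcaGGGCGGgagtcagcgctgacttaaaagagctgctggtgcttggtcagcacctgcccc
Col6a3 (chr1:90843972-90844091, minus strand): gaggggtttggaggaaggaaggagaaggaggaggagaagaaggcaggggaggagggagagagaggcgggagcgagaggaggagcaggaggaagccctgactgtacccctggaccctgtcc
Col25a1 (chr3:130180725-130180844, plus strand): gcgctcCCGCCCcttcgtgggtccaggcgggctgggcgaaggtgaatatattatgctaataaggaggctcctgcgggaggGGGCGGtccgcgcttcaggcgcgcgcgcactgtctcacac
Col8a1 (chr16:57754738-57754857, minus strand): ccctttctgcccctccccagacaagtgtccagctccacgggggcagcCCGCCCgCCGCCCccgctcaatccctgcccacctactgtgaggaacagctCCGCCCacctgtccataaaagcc
Col9a1 (chr1:24177490-24177609, plus strand): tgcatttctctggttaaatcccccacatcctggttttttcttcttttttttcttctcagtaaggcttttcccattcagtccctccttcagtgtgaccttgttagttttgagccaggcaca

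Within 300-base windows (250 before the start and 50 after it), the GC-box letters stood on either strand in 22 of the 37 collagen windows. All genes gave 35.9% of 32544 promoter windows. The 22 windows belonged to 21 of the 34 collagen genes. GC-box letters stood in 6 of the 9 genes with a window that were called by genotype, a share near that of all 34. Among these 6 were Col6a5, Col8a1, Col8a2 and Col25a1. The letters CCAAT stood in 12 of the 34 genes (37.4% of all windows), of which 4 were called. TATAAA stood in 5 (13.6%), none of which was called. The windows were also searched for CAATAAA and TTTACGA, letters found in binding motifs of posterior HOX proteins. The first of these overlaps in letters with both motifs named before. CAATAAA stood in 0 of the 34 genes (4.51% of all windows) and TTTACGA in 0 (0.602%). The SOX-type letters ACAAAG stood in 5 genes (18.7%) and ACAATG in 1, Col28a1 (12.4%). For all letters but GGGCGG, the numbers of collagen windows and of collagen genes with them were equal. These are matches of letters only.

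Without both HOX13 genes, 9 collagen genes rose and 1 fell among the 41 members tested at E11.5 by edgeR's quasi-likelihood test with Benjamini-Hochberg adjustment over all 16166 genes (adjusted p below 0.05). Among all genes tested, 7.16% were called, with 3.82% risen and 3.34% fallen. The risen genes were the fibrillar chains Col1a1 and Col1a2, the FACITs Col9a1 and Col16a1, the network chain Col8a2, the collagen VI chains Col6a1, Col6a3 and Col6a5, and the transmembrane collagen Col25a1. The fallen gene was Col8a1. Both mutant libraries lay above both wild-type libraries in 17 of the 41 members and below them in 4, where all genes tested gave 24.0% and 25.3%. The median log2 fold change of the members was 0.11, beside -0.0008 over all genes tested. One member, Col4a3, was too low to be tested. The calls of 6 of the 10 members held in all 13 alternative analyses. These were Col6a1, Col6a3, Col6a5, Col8a1, Col8a2 and Col25a1. The number risen was 17 without wild-type replicate 1, and the number fallen was 6 without wild-type replicate 2. In each fit that leaves out a library, the lone library of its group is assumed to vary like those of the other group.

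**Figure D1:**
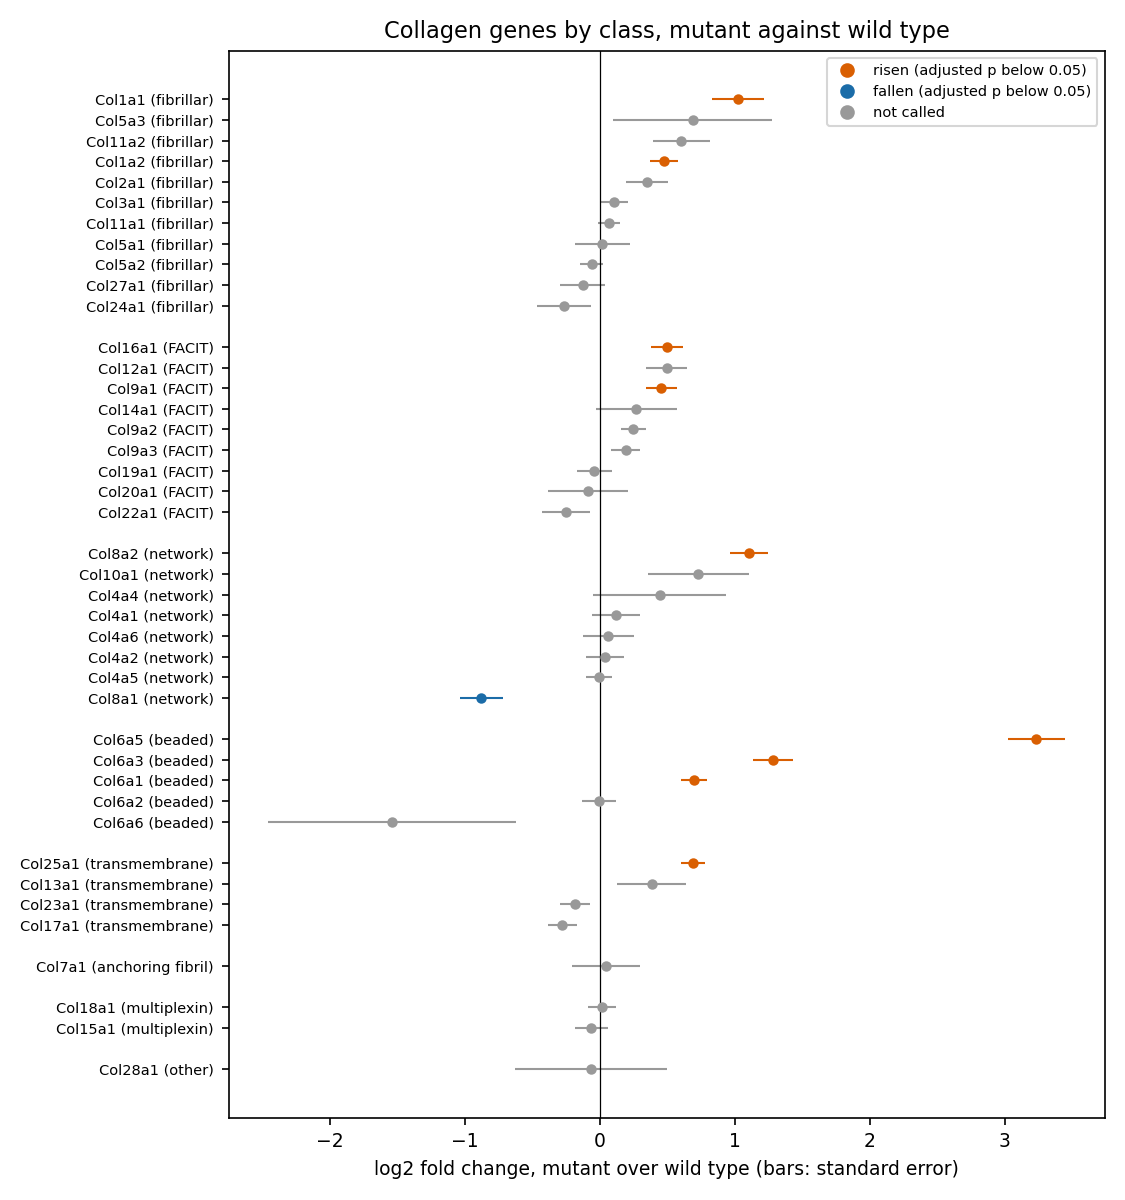
The log2 fold change of each tested collagen gene, mutant over wild type, is plotted on the horizontal axis with its standard error, grouped by class on the vertical axis, with risen genes in orange, fallen in blue and uncalled in grey. Col6a5 stands farthest to the right (3.23), Col8a1 is the called gene to the left of 0 (-0.88), and the low-count Col6a6 has a wide error bar (-1.54, SE 0.92).

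Collagen VI had the largest changes, and its chains did not move alike. Col6a5 encodes a chain related to Col6a3 that can stand in for it in the collagen VI trimer. It measured 13.1 and 17.0 CPM in the mutant libraries and 1.91 and 1.32 in wild type. Both mutant libraries were far above both wild-type libraries, and the fold change on the log2 scale was 3.23 ± 0.21 (SE), with an adjusted p of 2.69e-06 by edgeR. Col6a3, the long chain common to most collagen VI, measured 100.4 and 97.4 CPM in the mutant and 48.9 and 32.9 in wild type (edgeR log2 fold change 1.28 ± 0.15 SE, adjusted p = 0.000203). The mutant libraries were close to each other and the wild-type libraries stood apart. Col6a1, an obligatory short chain, measured 46.3 and 42.4 CPM against 28.0 and 27.0 (edgeR log2 fold change 0.70 ± 0.10 SE, adjusted p = 0.000916).

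Col6a2, the other obligatory short chain, did not pass the test. It measured 22.3 and 19.2 CPM in the mutant and 22.9 and 19.0 in wild type, so the groups overlapped fully (edgeR log2 fold change -0.01 ± 0.13 SE, adjusted p = 0.987). Col6a1 and Col6a2 lie next to each other in the annotation. Per kilobase of exon, the Col6a1 level was 3.95 and 4.19 times the Col6a2 level in the mutant libraries and 2.33 and 2.70 times in wild type. Col6a6, another relative of Col6a3, had 4 and 13 counts in the mutant and 41 and 4 in wild type. Wild-type replicate 1 alone was high among the 4, and the gene did not pass (edgeR log2 fold change -1.54 ± 0.92 SE, adjusted p = 0.408). Without wild-type replicate 2 it was -2.47 with an adjusted p of 0.0271 by edgeR, and without replicate 1 it was 1.10 and uncalled, so its direction turned with the library kept. Col6a6 and Col6a4 flank Col6a5 in the annotation, and Col6a4 had at most 8 counts in any library.

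**Figure D2:**
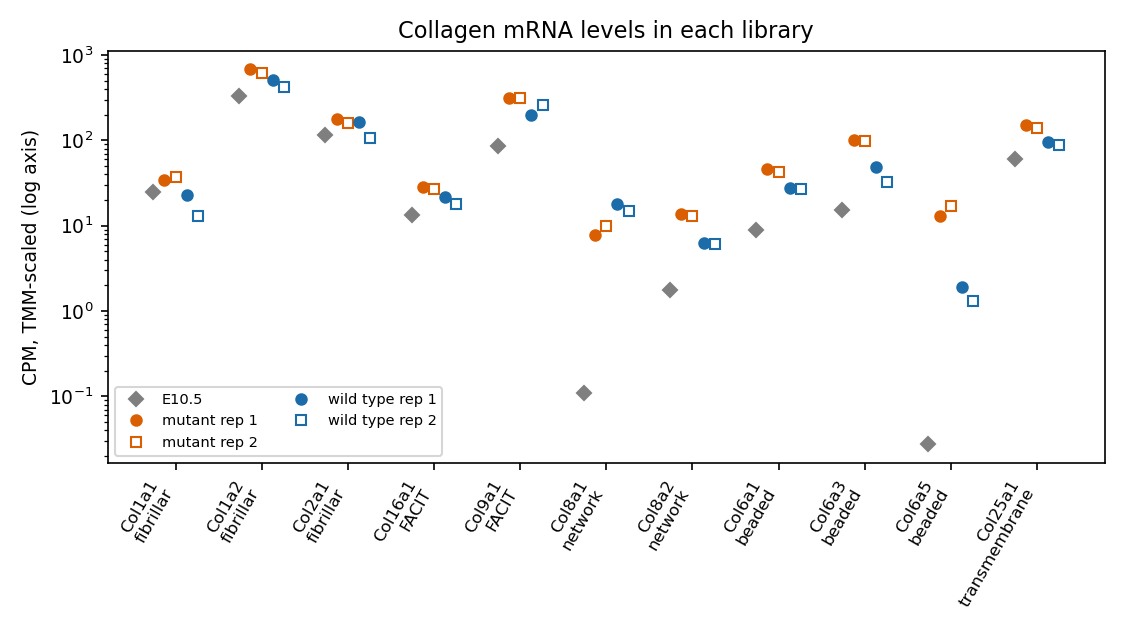
Levels of the 10 called collagen genes and Col2a1 are plotted on a logarithmic axis of TMM-scaled CPM, with 1 point per library (grey diamond E10.5, orange mutant, blue wild type, circles replicate 1, open squares replicate 2). The mutant points lie clear of the wild-type points for Col6a5 (13.1 and 17.0 against 1.91 and 1.32) and overlap with them for Col2a1.

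Of the 11 fibrillar collagens, 2 rose, namely both chains of collagen I, the main fibril of connective tissue and later of bone. Col1a1 measured 34.3 and 37.5 CPM in the mutant and 22.7 and 12.98 in wild type, without overlap (edgeR log2 fold change 1.02 ± 0.19 SE, adjusted p = 0.00695). Leaving out a wild-type library gave 1.47 (replicate 1) or 0.67 (replicate 2), and DESeq2 gave an adjusted p of 0.103. Col1a2 measured 680 and 623 CPM against 516 and 426 (edgeR log2 fold change 0.48 ± 0.10 SE, adjusted p = 0.0153). Its adjusted p was 0.133 without mutant replicate 1. The chains were measured at unequal levels. Per kilobase of exon, Col1a2 was 10.47 and 8.77 times Col1a1 in the mutant libraries, 11.98 and 17.3 times in wild type and 6.95 times at E10.5.

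Col2a1, the cartilage fibril collagen, was not called. It measured 181 and 161 CPM in the mutant and 164 and 106 in wild type, and the second mutant library lay below the first wild-type library (edgeR log2 fold change 0.35 ± 0.15 SE, adjusted p = 0.238). With wild-type replicate 1 left out, it was called at 0.69 (adjusted p = 3.20e-05, edgeR), and with replicate 2 left out its change was 0.08 and uncalled. It was also called with no filter on low counts (0.35, adjusted p = 0.0162, edgeR). Its fibril partners Col11a1 (log2 fold change 0.07) and Col11a2 (edgeR log2 fold change 0.60 ± 0.21 SE, adjusted p = 0.124) were not called either. By edgeR, Col11a2 was called at 1.01 when wild-type replicate 1 was left out (adjusted p = 0.000435), at 0.72 when mutant replicate 1 was (adjusted p = 0.0299), and at 0.60 with no filter on low counts (adjusted p = 0.00722), and it was 0.28 and uncalled when wild-type replicate 2 was left out. Col3a1, the mesenchymal fibril collagen with the highest mean CPM of all members over the 5 libraries, measured 627 and 693 CPM in the mutant and 657 and 573 in wild type (edgeR log2 fold change 0.11 ± 0.10 SE). Col5a1 and Col5a2, which set fibril diameter, had log2 fold changes of 0.02 and -0.06. Col5a1 was 0.53 without wild-type replicate 1 (adjusted p = 0.00128, edgeR) and -0.36 without wild-type replicate 2 (adjusted p = 0.0235, edgeR), so its direction depended on which wild-type library was kept. Col24a1 (-0.26) and Col27a1 (-0.13) were uncalled, and Col27a1 was called down without wild-type replicate 2 (-0.42, adjusted p = 0.0185, edgeR) but had 0.23, uncalled, without replicate 1.

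Of the 9 FACITs, 2 rose. Col9a1, a chain of the collagen IX that coats cartilage fibrils, measured 315 and 312 CPM in the mutant and 199 and 260 in wild type (edgeR log2 fold change 0.45 ± 0.12 SE, adjusted p = 0.0345). The groups did not overlap, and leaving out a wild-type library gave 0.27 (replicate 1) or 0.67 (replicate 2). Its adjusted p was 0.0544 without mutant replicate 1. The other collagen IX chains also had both mutant libraries above both wild-type libraries but did not pass. Col9a2 measured 41.4 and 39.9 CPM against 35.2 and 33.6 (edgeR log2 fold change 0.25 ± 0.09 SE, adjusted p = 0.161), and Col9a3 measured 28.5 and 25.4 against 24.6 and 22.9 (edgeR log2 fold change 0.19 ± 0.11 SE, adjusted p = 0.378). Exons of Col9a3 overlap those of Tcfl5 on the opposite strand by 234 bases in GENCODE M21, and whether counting used strand is not stated in the labels, so its value is uncertain.

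Col16a1, a FACIT found beside several fibril types, rose from 21.7 and 17.8 CPM in wild type to 28.3 and 27.0 (edgeR log2 fold change 0.49 ± 0.12 SE, adjusted p = 0.0253). Its adjusted p was 0.104 without mutant replicate 1 and 0.061 (log2 fold change 0.37) without wild-type replicate 2, and it was called at 0.63 without wild-type replicate 1. Col12a1, which associates with collagen I fibrils, measured 95.3 and 124 CPM in the mutant and 91.2 and 65.6 in wild type (edgeR log2 fold change 0.49 ± 0.15 SE, adjusted p = 0.0743). It was called without mutant replicate 1 (0.67, adjusted p = 0.000174, edgeR) and without wild-type replicate 1 (0.74, adjusted p = 0.00026, edgeR), and with no filter on low counts (0.49, adjusted p = 0.000333, edgeR). Without wild-type replicate 2 it was 0.28 and uncalled. The remaining FACITs, Col14a1, Col19a1, Col20a1 and Col22a1, had log2 fold changes of -0.25 to 0.27 and were not called.

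The network collagens held the fallen member and a risen one, and both belong to collagen VIII, a short-chain collagen of sheet-like matrices. Col8a1 measured 7.79 and 10.03 CPM in the mutant and 18.1 and 14.8 in wild type (edgeR log2 fold change -0.88 ± 0.16 SE, adjusted p = 0.00487). Col8a2 measured 13.6 and 12.96 CPM in the mutant and 6.26 and 6.15 in wild type (edgeR log2 fold change 1.10 ± 0.14 SE, adjusted p = 0.000398). Neither gene's groups overlapped, and the chains moved in opposite directions, with log2 fold changes of -1.07 to -0.70 for Col8a1 and 1.07 to 1.14 for Col8a2 over 13 alternatives.

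The collagen IV chains of the basement membrane were not called. Col4a1 measured 357 and 298 CPM in the mutant and 378 and 229 in wild type (edgeR log2 fold change 0.12 ± 0.18 SE), and Col4a2 measured 206 and 181 against 224 and 155 (0.04, SE 0.14). In both genes the wild-type libraries enclosed the mutant ones. Without wild-type replicate 1 both were called, at 0.51 (adjusted p = 0.00102, edgeR) and 0.32 (adjusted p = 0.0257, edgeR). When replicate 2 was left out they were -0.19 and -0.20, both uncalled, so their direction turned with the wild-type library kept. These genes are transcribed head to head, and their annotated first exons share 22 bases on opposite strands. Col4a5 (-0.01, SE 0.10) and Col4a6 (0.06, SE 0.19), a similar pair on chromosome X, differed by little. Col4a4 had at most 20 counts in any library. Col10a1, the collagen of hypertrophic cartilage, had 56 to 175 counts per library (edgeR log2 fold change 0.73 ± 0.37 SE, adjusted p = 0.319) and was called without wild-type replicate 1 (1.49, adjusted p = 0.00598, edgeR) but not without replicate 2 (0.21). Its exons overlap those of Nt5dc1 on the opposite strand by 18 bases.

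Among the transmembrane collagens, Col25a1, whose product is needed for motor axons to innervate muscle, measured 152 and 142 CPM in the mutant and 95.3 and 87.9 in wild type, without overlap (edgeR log2 fold change 0.69 ± 0.09 SE, adjusted p = 0.000435). Col17a1, of the hemidesmosomes that anchor epidermis, measured 24.5 and 26.5 CPM against 33.5 and 28.7. Both mutant libraries were lower, but the gene did not pass (edgeR log2 fold change -0.28 ± 0.11 SE, adjusted p = 0.184), except without wild-type replicate 2 (-0.38, adjusted p = 0.0425, edgeR). Without replicate 1 it was -0.17. Col23a1 (-0.19) and Col13a1 (0.38) were not called. Col7a1, of the anchoring fibrils below the epidermis, measured 21.8 and 25.0 CPM in the mutant and 31.3 and 14.4 in wild type. It had a log2 fold change of 0.70 without wild-type replicate 1 (adjusted p = 0.00111, edgeR) and -0.41 without wild-type replicate 2 (adjusted p = 0.039, edgeR). The multiplexins of basement membranes, Col15a1 (-0.06) and Col18a1 (0.01), and the low-count Col28a1 (-0.06) were not called.

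**Figure D3:**
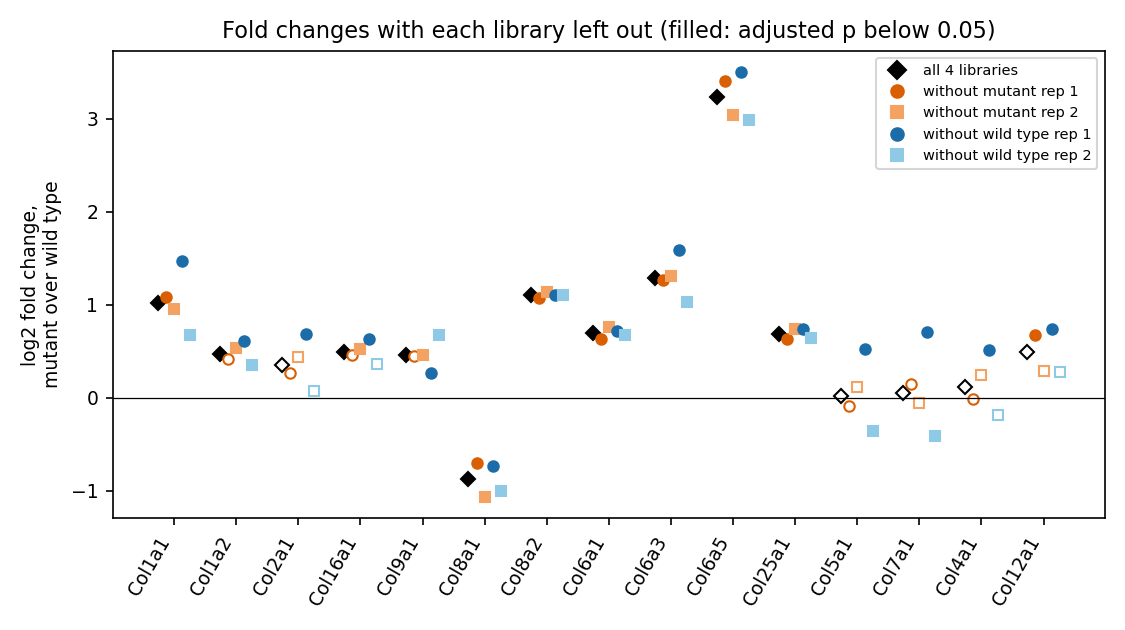
The log2 fold change, mutant over wild type, is plotted for the 10 called collagen genes and 5 uncalled ones with all 4 libraries and with each library left out, filled where the adjusted p was below 0.05. Col5a1 and Col7a1 lie above 0 without wild-type replicate 1 (0.53 and 0.70) and below 0 without wild-type replicate 2 (-0.36 and -0.41), while Col6a1, Col8a2 and Col25a1 hardly move.

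A list of collagen partners held genes whose products modify, fold, cleave, cross-link or bind collagens, and 10 genes of transcription factors known to act in collagen-making cells. Of 62 tested, 5 rose and 3 fell, beside 3.82% and 3.34% of all genes tested. P4ha2, a catalytic subunit of prolyl 4-hydroxylase, rose from 21.4 and 20.8 to 35.4 and 26.7 CPM (edgeR log2 fold change 0.57 ± 0.13 SE, adjusted p = 0.0218). Leprel2, a prolyl 3-hydroxylase, rose (0.37), as did Adamts3, a procollagen N-proteinase (0.56), Bgn, the small proteoglycan biglycan (0.52), and Itga1, a collagen-binding integrin (0.49). Itga11, an integrin that binds fibrillar collagen, fell from 19.2 and 16.6 CPM to 7.26 and 6.54 without overlap (edgeR log2 fold change -1.37 ± 0.14 SE, adjusted p = 9.05e-05). Plod2, a lysyl hydroxylase (-0.37), and Foxc2, a mesenchymal transcription factor gene (-1.19), fell. Of these 8, Itga11 kept its call in all 13 alternatives. The numbers risen and fallen were 12 and 5 without wild-type replicate 1. Without mutant replicate 1, 0 rose and 2 fell by edgeR, where 11 and 5 had an unadjusted p below 0.05. The collagen chaperone gene Serpinh1 (0.06), the procollagen C-proteinase gene Bmp1 (0.18), the cross-linking enzyme gene Lox (edgeR log2 fold change 0.50 ± 0.17 SE, adjusted p = 0.11) and the cartilage regulator gene Sox9 (0.36, SE 0.14) were not called.

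Markers of other cell types in the bud were also compared between genotypes. Summed over 10 endothelial markers the levels were 244 and 219 CPM in the mutant and 200 and 213 in wild type, and Flt1 rose (0.69). The 10 ectoderm markers summed to 331 and 346 CPM against 341 and 358, the 10 muscle markers to 94.9 and 114 against 131 and 156, and the 10 nerve and Schwann cell markers to 61.8 and 64.7 against 75.1 and 76.2. Within these sums single markers moved in opposite directions. The neuronal markers Tubb3 (-1.54) and Stmn2 (-1.57) fell and Gap43 rose (0.98), the keratin genes Krt14 (-0.42) and Krt8 (-0.56) fell and the ridge gene Fgf8 rose (1.06), and the muscle gene Actc1 fell (-0.87). The 9 macrophage markers summed to 72.9 and 69.9 CPM against 47.7 and 59.996, and the 9 erythroid markers to 2956 and 2888 against 2349 and 2323. Of these, Mrc1 (0.62), Lyz2 (1.19) and Hbb-bh1 (0.81) rose. Of these markers only Hba-a1 was at 0 in any library, and it was so in all 5. The limb mesenchyme markers summed to 970 and 944 CPM in the mutant and 840 and 801 in wild type. Most of that sum was Prrx1 (697 and 707 CPM against 517 and 487). Prrx2, Twist1 and Msx1 fell, and Tbx5 and Lmx1b were not called. The part of all these markers in the collagen results was not tested.

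Of the collagen VI chains 4 of 5, both collagen VIII chains, the collagen IX chains and Col17a1 were lower at E10.5 than in wild-type E11.5 tissue. The exception in collagen VI was Col6a6. Of the 41 tested members, 12 were at least 2-fold lower at E10.5 than in each wild-type E11.5 library and 1 was at least 2-fold higher, where all genes tested gave 12.4% and 3.72%. There is 1 E10.5 library, so no test was made. Stage, dissected part and strain label changed together and cannot be told apart. In all, 16 genes with at least 100 counts at E10.5 were at 0 in all 4 E11.5 libraries and 15 showed the reverse, with 0 collagens among either. One of them was the collagen export gene Mia3, with 11431 counts at E10.5. The cause was not tested. Both comparisons use the wild-type libraries, so their values are given side by side and were not set against each other.

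**Figure D4:**
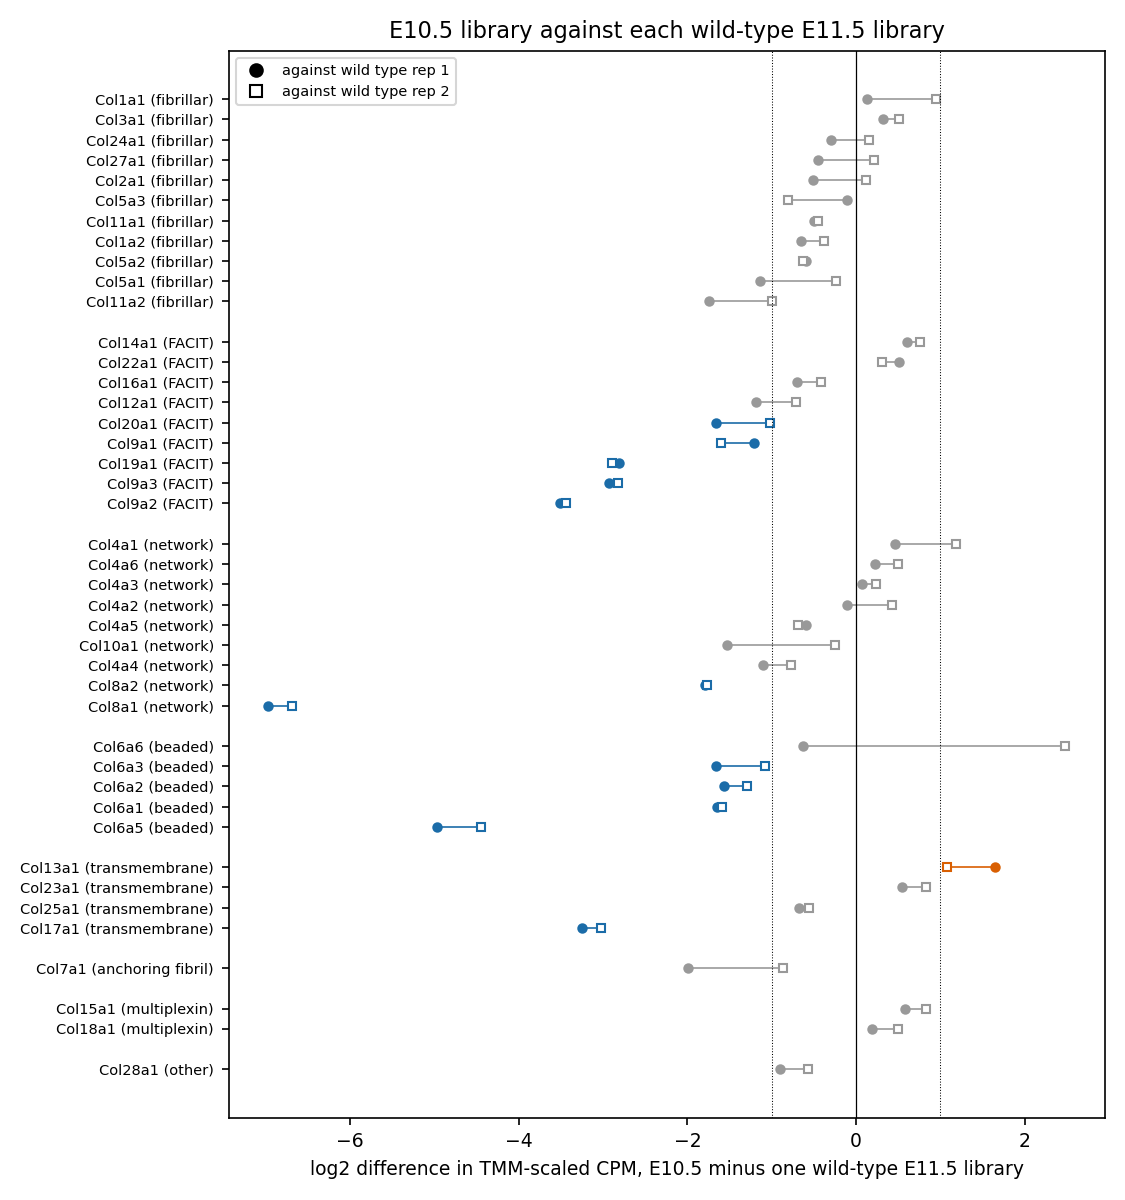
The log2 difference in TMM-scaled CPM between the E10.5 library and each wild-type E11.5 library (circles replicate 1, open squares replicate 2) is plotted for the 42 collagen genes by class, with blue for genes at least 2-fold lower against both and orange for higher. Col8a1 (-6.97 and -6.68) and Col6a5 (-4.97 and -4.45) lie farthest to the left, and no fibrillar gene passes 2-fold against both.

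Col6a1, Col6a2, Col6a3 and Col6a5 were low at E10.5. Col6a1 measured 8.95 CPM, Col6a2 7.72 and Col6a3 15.5, and each was lower than in either wild-type library by more than 2-fold. Col6a6 measured 0.550 CPM, between the wild-type libraries (0.870 and 0.0705). Col6a5 had 2 counts at E10.5 and 165 in the 2 wild-type libraries, 57.8 times as many per unit of scaled library size (exact 95% limits 15.8 and 481, covering counting error only). Col8a1 had 8 counts at E10.5 against 851 and 840 in wild type, and Col8a2 measured 1.79 CPM against 6.26 and 6.15.

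Cartilage FACITs differed more between the E10.5 library and wild-type E11.5 tissue than Col2a1 did. Col9a2 measured 3.06 CPM at E10.5 against 35.2 and 33.6 in wild-type E11.5 tissue, and Col9a3 3.20 against 24.6 and 22.9. Col9a1 measured 85.9 CPM at E10.5, against 199 and 260. Per kilobase of exon, Col9a1 was 17.1 times Col9a2 at E10.5 and 3.46 to 4.77 times in the 4 E11.5 libraries. Col2a1 measured 115 CPM at E10.5, between the wild-type libraries (164 and 106). Col19a1 (1.98 CPM against 14.2 and 14.95) and Col20a1 (0.660 against 2.17 and 1.38) were the other FACITs called lower.

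Fibrillar collagens had no member past 2-fold against both wild-type libraries. Col11a2 came nearest, at 2.65 CPM against 8.96 and 5.32, or -1.74 and -0.996 on the log2 scale. The fibrillar median lay closer to 0 (-0.46 on the log2 scale) than those of the FACITs (-1.34) or collagen VI (-1.43). The median was -0.64 for network, 0.04 for transmembrane and 0.52 for multiplexin collagens, and 0.005 for all genes tested. Col3a1 measured 818 CPM at E10.5 against 657 and 573. Col1a2 measured 328 CPM against 516 and 426, and Col1a1 24.9 against 22.7 and 12.98. In the epithelial group, Col17a1 measured 3.49 CPM at E10.5 against 33.5 and 28.7, and the keratin gene Krt14 10.7 against 67.2 and 76.1. The 10 ectoderm markers summed to 317 CPM against 341 and 358. Among them Fgf8 was higher at E10.5 (37.96 against 11.1 and 8.99), and Epcam measured 46.96 against 50.6 and 48.5. Their part in the difference was not tested. Col13a1, a transmembrane collagen of cell-matrix contacts, was the member called higher at E10.5 (5.52 CPM against 1.74 and 2.59). The basement membrane genes Col4a1 (519 CPM against 378 and 229) and Col18a1 (248.9 against 219 and 176) did not reach 2-fold in both comparisons. The endothelial markers summed to 315 CPM at E10.5.

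Levels could be compared between genes only per kilobase of exon, using union exon lengths of GENCODE M21 on GRCm38, which may differ from the authors' gene models. On that scale the mean of the wild-type libraries was highest for Col3a1 (62.7 CPM per kilobase), followed by Col9a1 (45.3), Col4a1 (40.7), Col5a2 (38.2), Col1a2 (37.9), Col4a2 (28.6) and Col18a1 (28.1). Col3a1 lay above the rest in both wild-type libraries. Col9a1 (39.3 and 51.3), Col4a1 (50.6 and 30.7), Col5a2 (37.8 and 38.5) and Col1a2 (41.5 and 34.3) overlapped, as did Col4a2 and Col18a1. Col2a1 followed at 17.7 and 11.4. Col1a1 was in place 22 of 42, at 3.46 and 1.98. In the mutant libraries Col9a1 (62.2 and 61.5) lay just below Col3a1 (63.9 and 70.6). Col6a5 rose from 0.203 and 0.141 CPM per kilobase in wild type to 1.39 and 1.81 in the mutant, still below Col6a3 at 8.39 and 8.14.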

How the data were processed

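The authors deposited 1 table of whole-number read counts per gene symbol for each of 5 libraries. Per the labels' protocols, ribosomal RNA was removed and stranded libraries were made. Per the submitters' processing notes, TopHat2 2.0.13, HTSeq, SAMtools and Cufflinks 2.1.1 were used with mm9. The annotation and strand setting are not given in the sources used here. The 5 HTSeq summary lines entered neither the library sizes nor any test. Reads in no feature were 24.3% to 39.6% and ambiguous reads 0.751% to 1.14% of the reads listed.

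Mutant and wild type were compared in the 4 E11.5 libraries with edgeR 4.0.16 in R 4.3.3 (filterByExpr with minimum count 10 and total 15, TMM, quasi-likelihood F test, genotype as the only term). For the edgeR fits, each SE is the absolute log2 fold change divided by the square root of the F statistic. CPM were scaled by TMM over all 5 libraries. The E10.5 comparison used log2 CPM with a prior count of 2. The procedure was tested on simulated data, with genes varying independently and alike in both groups. That test cannot speak for shifts shared by many genes of a library. DESeq2 1.42.0 and limma 3.58.1 were alternatives. The members, gene lists and classes were chosen with earlier results of these data known. Genes were named when they passed the test, marked the set, led their class by level or change, belonged to collagens I, II, IV, VI or IX, or were called at E10.5, and partner genes among the 8 of smallest adjusted p. Others were named after their values were seen. Replicates differed by more than sampling noise (chi-square per degree of freedom 12.0 in the mutant, 28.5 in wild type).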

Additional observations from a re-analysis of the deposited data

How the results depend on the processing

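Under other scaling, filters, tests and quasi-likelihood estimates, 8 to 12 collagen genes rose and 1 fell, beside 9 and 1 in the main fit. The 12 came without the filter on low counts and the 8 with the DESeq2 Wald test. With a library left out, collagen genes risen were 8 to 17 and fallen 1 to 6, partner genes risen 0 to 12 and fallen 2 to 5, and all genes risen 410 to 1113 and fallen 373 to 905. The extremes upward came without wild-type replicate 1, except for collagen genes fallen (without wild-type replicate 2) and partner genes fallen (without either). Without the filter on low counts 959 of all genes rose in place of 617. At 3-fold, 0 members were higher and 8 lower at E10.5, in place of 1 and 12 at 2-fold. When a wild-type library was left out, 1 to 3 were higher and 12 to 18 lower. Single genes that turned included Fn1 (0.34 without wild-type replicate 1, -0.33 without replicate 2). Col7a1 (0.70 without wild-type replicate 1, -0.41 without replicate 2) and Col5a1 (0.53 and -0.36) turned likewise. The direction of Col6a6, Col4a1, Col4a2 and Col27a1 also depended on the wild-type library left out. The causes were not tested. With the replicate number as a block, 10 collagen genes rose and 1 fell, and Col2a1 passed (log2 fold change 0.38, adjusted p = 0.0403, edgeR). The replicate numbers are not stated to mark a shared litter or day. The correlation of the replicate differences of both genotypes was -0.0776 over 16166 genes, and this value alone cannot decide whether libraries are paired. With 2 libraries a group, an exact permutation test of a single value cannot go below p = 0.333. Depth limits Col4a3, Col4a4, Col5a3, Col6a6 and Col28a1, which had at most 50 counts in any library.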

Other observations

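Collagen XXVI is listed under its older symbol, Emid2, and so falls outside the naming pattern of the set. It was singled out after its values were seen. Emid2 measured 166 and 161 CPM in the mutant and 136 and 128 in wild type, a difference of 0.31 ± 0.08 (SE) on the log2 scale with an adjusted p of 0.0444 by edgeR, and 192 CPM at E10.5.

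Genes lying beside the 10 called collagen genes were also examined, up to 2 on each side and leaving out other collagens. Only genes whose GENCODE M21 symbol also stood in the count data were considered, so a nearer gene may be missed. Of 27 such neighbours tested, 1 was called, beside 7.16% of all genes tested. This was Casd1, beside Col1a2, with 193 and 204 CPM in the mutant and 148 and 167 in wild type (log2 fold change 0.34, adjusted p = 0.0479, edgeR). Around Col6a5, Pik3r4 had a log2 fold change of 0.27 (adjusted p = 0.151, edgeR) and Glyctk 0.41 (adjusted p = 0.236, edgeR). Around Col8a1, Filip1l had -0.26 and Dcbld2 -0.21, with adjusted p of 0.155 and 0.162 by edgeR.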
